A study of Mus musculus with 32 samples.

Results

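The 10 genes described here had a lower mean level in the striatum of YAC128 mice given the antisense oligonucleotide AON12.1 than in each of 3 other groups of mice. They are Nalcn, Nrip3, Bend6, 2900060N12Rik, Alkbh6, Rnf157, Ints6l, Dzip3, Mettl26 and Adssl1. They were chosen on their counts in these same 32 libraries, as lower with AON12.1 than in at least 1 of those groups, out of 10679 genes with enough counts to test and 55415 features in the count files, and all 10 passed the filter on low counts. The comparisons of AON12.1 with the other groups are therefore a description, calls over all genes included, and support nothing about the 10. Tests are kept for comparisons that the choice did not use directly, though they share its libraries and are not independent of it.

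YAC128 mice, here on a B6 background per the labels, model Huntington disease: a yeast artificial chromosome gives them a human huntingtin gene with a lengthened CAG tract. The YAC128 AON12.1 group received 500 µg of AON12.1 in 10 µL of artificial cerebrospinal fluid (aCSF) into a lateral ventricle. The YAC128 scrambled group received 500 µg of a scrambled oligonucleotide in the same volume, the YAC128 aCSF group aCSF alone, and the WT aCSF group of wild-type littermates aCSF alone. All 4 groups underwent cannula placement at about 6 months of age, were injected 3 times within 4 weeks, and were killed at 12 months after an MRI scan. Each group had 8 libraries, 1 per separately numbered mouse, so a p-value here measures the spread between mice. The tissue was thus taken months after the last injection, and no earlier time was analysed here.

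Antisense oligonucleotides are short synthetic strands that pair with an RNA of matching sequence. Depending on their chemistry they alter its splicing or translation or recruit RNase H, which cuts the RNA strand of the hybrid, and a partial match in another transcript can lower that transcript too. A scrambled oligonucleotide ordinarily shares the chemistry without the intended match, so a gene that is lower with AON12.1 and not with the scrambled control is one for which sequence dependence is asked. The sequence and chemistry of AON12.1 are not given in the sources used here, so whether any of the 10 transcripts pairs with it was not tested.

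Total gene counts ran from 658934 to 1097099 per library in AON12.1 mice, 743457 to 1419313 in scrambled mice, 705758 to 1248991 in YAC128 aCSF mice and 659490 to 1153050 in WT mice. All 15 striatal projection neuron markers were detected, with a summed level of 6941 to 12749 CPM (counts scaled to the normalized library total) in AON12.1 mice, 3709 to 9081 CPM in scrambled mice, 4052 to 7923 CPM in YAC128 aCSF mice and 5915 to 12663 CPM in WT mice. The 8 cortical excitatory neuron markers summed to 87.7 to 613 CPM in AON12.1 mice, 179 to 1274 CPM in scrambled mice, 89.0 to 591 CPM in YAC128 aCSF mice and 139 to 518 CPM in WT mice. The 7 choroid plexus and ependymal markers reached 3384 CPM in 1 YAC128 aCSF library, against a highest value of 238 CPM in AON12.1 mice. By single genes, all 15 striatal projection neuron markers had higher values with AON12.1 than in scrambled mice (median log2 fold change 0.40) and than in YAC128 aCSF mice (median 0.43), and 11 of 15 than in WT mice (median 0.14), with none past an adjusted p of 0.05 by edgeR. The 6 tested cortical markers all had lower values than in scrambled mice (median -0.57), 2 of 6 than in YAC128 aCSF mice and 3 of 6 than in WT mice, also with none past it. In other marker lists, edgeR called 1 of 8 oligodendrocyte markers lower with AON12.1 than in WT mice (adjusted p = 0.00783), against 0.328% of all genes. The 8 split into 6 lower and 2 higher values (median -0.11). It called 1 of 8 astrocyte markers higher with AON12.1 than in YAC128 aCSF mice (adjusted p = 0.0410), against 0.215% of all genes. Those 8 split into 4 lower and 4 higher values (median -0.01). All 4 tested thalamus markers had lower values with AON12.1 than in WT mice (median -0.60), with none called. In scrambled mice 3 of 4 had lower values than in WT mice (median -0.56), also with none called. The 5 listed thalamus markers summed to 596 CPM in the highest WT library, while the median sum was 160 CPM in WT and 154 CPM in AON12.1 mice. Among the other groups, 14 of 15 striatal projection neuron markers had lower values in YAC128 aCSF than in WT mice (median -0.34). Of these edgeR called 2, against 0.0375% of all genes. Scrambled mice had 6 of 8 microglia markers higher than YAC128 aCSF mice (2 called, against 0.0843% of all genes). Against WT mice 5 of 8 were higher (1 called, against 0.131%). The part of these differences in the results below was not tested, and in bulk tissue fewer cells of a type and less RNA per cell cannot be told apart. Mouse Htt, the endogenous huntingtin gene, averaged 102 ± 15.4 CPM in AON12.1 mice, 101 ± 15.7 CPM in scrambled mice, 105 ± 17.5 CPM in YAC128 aCSF mice and 89.6 ± 17.4 CPM in WT mice (SD, n = 8 each). The one feature with no mouse Ensembl identifier, NM_001388492, averaged 143 ± 30.3 CPM in AON12.1 mice, 133 ± 23.5 CPM in scrambled mice and 144 ± 23.9 CPM in YAC128 aCSF mice. It averaged 3.40 ± 2.35 CPM in WT mice, where every library was below every YAC128 library.

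Promoter windows from RefSeq (build GRCm38.p6, 250 bases before to 50 after the annotated start) were available for 9 of the 10 genes. The windows shown are those of Nalcn, 2900060N12Rik and Alkbh6, the 3 genes past the threshold used for all genes against every other group, and of Bend6, whose start faces that of the gene Dst on the other strand. Each is read 5′ to 3′ on the strand of its gene, with motif matches in capitals.
Nalcn promoter window, chr14:123627095-123627394, minus strand: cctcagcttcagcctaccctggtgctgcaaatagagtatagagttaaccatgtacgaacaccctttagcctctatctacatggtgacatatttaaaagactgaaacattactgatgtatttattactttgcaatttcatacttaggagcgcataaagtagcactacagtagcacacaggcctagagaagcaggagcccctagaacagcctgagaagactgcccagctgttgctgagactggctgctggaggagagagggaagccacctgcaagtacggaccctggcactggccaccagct
2900060N12Rik promoter window, chr12:24831268-24831567, minus strand: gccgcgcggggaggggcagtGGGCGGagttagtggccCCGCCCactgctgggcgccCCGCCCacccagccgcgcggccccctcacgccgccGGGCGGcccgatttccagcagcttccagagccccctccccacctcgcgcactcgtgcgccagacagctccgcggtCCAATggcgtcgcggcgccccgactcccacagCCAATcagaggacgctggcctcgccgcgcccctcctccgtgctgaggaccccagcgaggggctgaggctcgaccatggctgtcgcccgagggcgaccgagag
Alkbh6 promoter window, chr7:30308503-30308802, plus strand: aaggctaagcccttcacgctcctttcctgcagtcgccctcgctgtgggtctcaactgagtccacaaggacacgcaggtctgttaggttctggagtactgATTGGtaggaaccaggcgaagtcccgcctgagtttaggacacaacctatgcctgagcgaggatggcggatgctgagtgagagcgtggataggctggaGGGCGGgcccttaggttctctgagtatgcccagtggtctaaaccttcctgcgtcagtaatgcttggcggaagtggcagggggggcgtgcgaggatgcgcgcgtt
Bend6 promoter window, chr1:33907718-33908017, minus strand: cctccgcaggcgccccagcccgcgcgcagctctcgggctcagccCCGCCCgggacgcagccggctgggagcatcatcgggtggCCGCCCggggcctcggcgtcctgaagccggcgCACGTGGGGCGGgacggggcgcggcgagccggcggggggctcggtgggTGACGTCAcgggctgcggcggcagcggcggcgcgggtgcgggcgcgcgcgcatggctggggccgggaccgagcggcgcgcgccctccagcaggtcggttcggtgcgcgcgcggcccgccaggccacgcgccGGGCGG
The motifs searched, on both strands, were TATAAA (the TATA box), CCAAT (the CCAAT box), GGGCGG (the GC box), TGACGTCA (the cAMP response element), CACGTG (the E-box), the palindromic NRF1 motif, CCGGAAG (an ETS motif) and ACTACAA (a ZNF143 motif). The GC box and E-box matches in the Bend6 window lie side by side, so the capitals there run on. Of 32851 windows of this length, GGGCGG was found in 35.7% and CCAAT in 37.4%, against 6 and 5 of the 9 genes. Bend6 and Dzip3 had 2 windows each and a match in either counted, so shares of windows and counts of genes are unlike units. TGACGTCA was found in 1.79% and CACGTG in 7.15% of all windows, and among the 9 only in Bend6. CCGGAAG, in 8.86% of all windows, was found only in Dzip3 among the 9, and ACTACAA, in 3.24%, only in Ints6l. TATAAA, in 13.6% of all windows, and the NRF1 motif, in 0.971%, were found in none of the 9. The Nalcn window held no match and 48.3% G and C with 3 CpG pairs, while the Bend6 window shown held 83.7% with 56 and the 2900060N12Rik window 76.0% with 37. The median over all windows was 52.7% and 7, so these windows differed in base composition and no motif searched was in all 9.

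The group means of all 10 genes were lowest in AON12.1 mice, as were those of 24.7% of all tested genes. In each of the 10, all 8 AON12.1 libraries lay below the median of the 24 other libraries, which held for 205 of 10679 genes (1.92%). By the adjusted p of edgeR's quasi-likelihood test over all genes, 5 of the 10 were past 0.05 against scrambled mice, where 5 of 10679 genes were lower (0.0468%). Against YAC128 aCSF mice 8 were, where 10 genes were lower (0.0936%), and against WT mice 6 were, where 35 genes were lower (0.328%). These are the comparisons that chose the genes, so nothing is read from the counts. The genes past the threshold in all 3 were Nalcn, 2900060N12Rik and Alkbh6. Nrip3 and Rnf157 passed against scrambled and WT mice, and Bend6 against YAC128 aCSF and WT mice. Ints6l, Dzip3, Mettl26 and Adssl1 passed against YAC128 aCSF mice alone. When single libraries were left out, Alkbh6 passed in 26 of 32 fits against YAC128 aCSF mice and in 28 against scrambled mice, Rnf157 in 22 against scrambled and 31 against WT mice, and Nalcn in 31 against scrambled mice, all but that without AON12.1 replicate 8. Against YAC128 aCSF mice, Adssl1 passed in 27 of 32 and Ints6l in 30, all but those without AON12.1 replicate 8 and YAC128 aCSF replicate 3. With only the 2 groups compared in the fit, Nalcn missed the threshold against scrambled mice (adjusted p = 0.137), and Alkbh6 missed it against scrambled (0.141), YAC128 aCSF (0.060) and WT mice (0.0507). Adssl1 also missed it in such a fit against YAC128 aCSF mice (0.0623), the only comparison in which it had passed. The median log2 fold change of the 10 was -0.49 against scrambled, -0.70 against YAC128 aCSF and -0.48 against WT mice, while the median over all genes was 0.01 against scrambled mice, 8.9e-05 against YAC128 aCSF mice and 0.01 against WT mice.

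**Figure D1:**
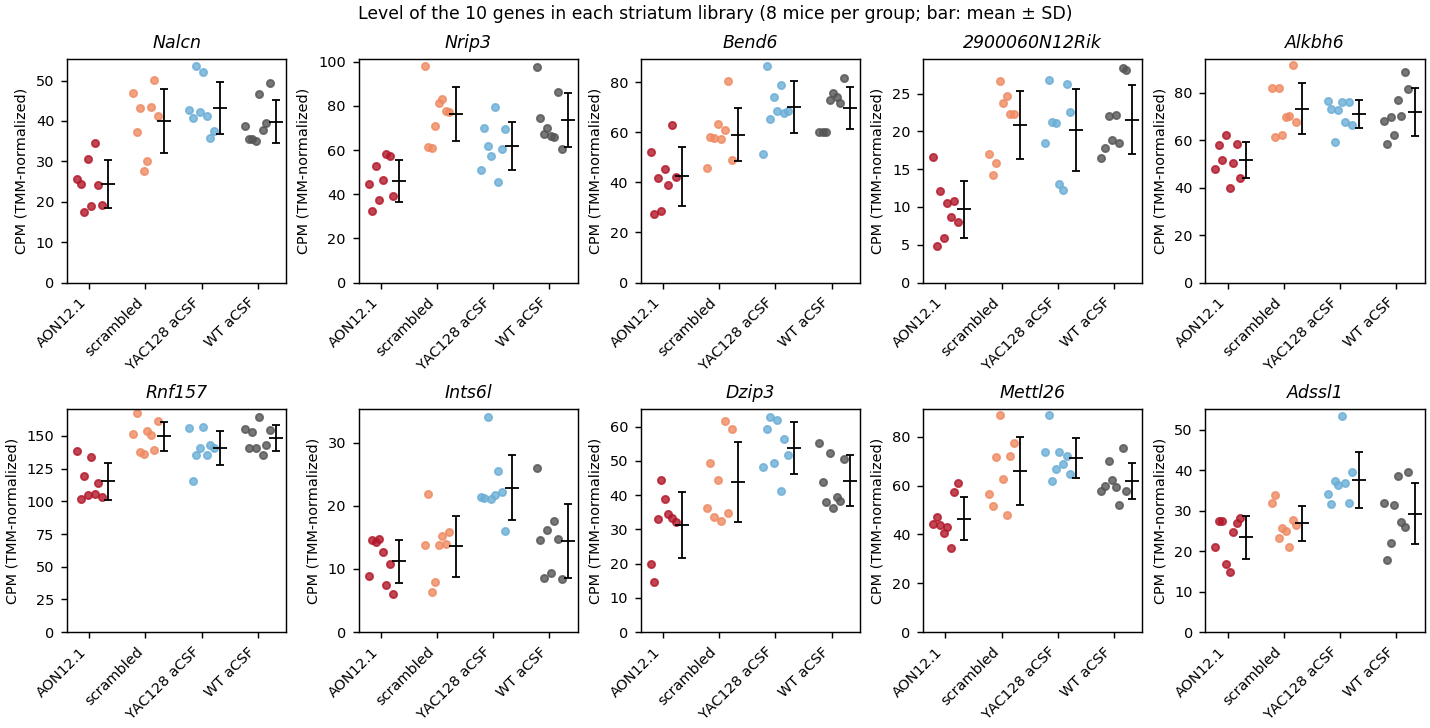
Level of each gene in every library, in CPM after TMM normalization on a linear axis that starts at 0, with 8 mice per group as points and the mean ± SD as a bar beside them. The AON12.1 points sit lowest in Nalcn and 2900060N12Rik, whereas in Ints6l and Adssl1 the YAC128 aCSF points stand above all other groups' means.

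Nalcn (ENSMUSG00000000197, chromosome 14) encodes the pore of the sodium leak channel, whose background current sets how close a resting neuron is to firing. With AON12.1 its lowest, median and highest levels were 17.6, 24.3 and 34.5 CPM. The same values were 27.6, 42.2 and 50.0 CPM in scrambled mice, 35.7, 41.7 and 53.5 CPM in YAC128 aCSF mice, and 35.1, 38.3 and 49.3 CPM in WT mice. All 8 AON12.1 libraries were below every YAC128 aCSF library, as in 7 of 10679 genes (0.0655%), and below every WT library, as in 16 (0.15%), and 6 of them were below every scrambled library. Its log2 fold change with AON12.1 was -0.71 ± 0.14 (SE) against scrambled, -0.82 ± 0.14 against YAC128 aCSF and -0.70 ± 0.14 against WT mice, which is a mean level 39.1%, 43.7% and 38.9% lower. The other 3 groups followed the order WT, scrambled, YAC128 aCSF from low to high, with means between 39.8 and 43.2 CPM.

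Among the nuclear proteins, Bend6 (ENSMUSG00000042182, chromosome 1), a BEN domain corepressor of Notch target genes in the mouse brain, had lowest, median and highest levels of 27.5, 41.9 and 62.9 CPM in AON12.1 mice. They were 45.8, 57.9 and 80.6 CPM in scrambled mice, 51.1, 68.5 and 86.3 CPM in YAC128 aCSF mice, and 60.0, 72.2 and 81.7 CPM in WT mice. The highest AON12.1 libraries reached into the range of each other group, and 6 of 8 lay below all 24 other libraries. With AON12.1 the log2 fold change was -0.45 ± 0.13 against scrambled, -0.71 ± 0.13 against YAC128 aCSF and -0.70 ± 0.13 against WT mice. Scrambled mice stood between AON12.1 mice and the aCSF groups.

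Nrip3 (ENSMUSG00000034825, chromosome 7) is named as a nuclear receptor interacting protein. Its lowest, median and highest levels were 32.4, 45.4 and 58.1 CPM in AON12.1 mice, against 61.0, 77.6 and 98.0 CPM in scrambled mice, 45.6, 61.2 and 79.3 CPM in YAC128 aCSF mice and 60.6, 68.8 and 97.7 CPM in WT mice. The AON12.1 libraries did not overlap with the scrambled or the WT libraries, but 4 of the 8 reached into the YAC128 aCSF range. Nrip3 was the only one of 10679 genes (0.00936%) with every AON12.1 library below every scrambled library. For WT libraries this held in 16 genes (0.15%). Its log2 fold change with AON12.1 was -0.72 ± 0.13 against scrambled, -0.42 ± 0.13 against YAC128 aCSF and -0.66 ± 0.13 against WT mice.

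Ints6l (ENSMUSG00000035967, chromosome X) is the paralog of a subunit of Integrator, the complex that cuts nascent small nuclear RNAs and ends transcription early at many genes. Its counts were low, from 6 to 40 per library. Across mice, the lowest, median and highest levels were 6.02, 11.7 and 14.8 CPM in AON12.1 mice, 6.31, 13.9 and 21.9 CPM in scrambled mice, 16.0, 21.5 and 34.0 CPM in YAC128 aCSF mice, and 8.45, 14.7 and 25.9 CPM in WT mice. AON12.1 libraries lay below every YAC128 aCSF library, as in 7 of 10679 genes (0.0655%), but overlapped widely with scrambled and WT libraries. With AON12.1 its log2 fold change was -1.05 ± 0.22 against YAC128 aCSF, while the 95% interval ran from -0.79 to 0.20 against scrambled and from -0.90 to 0.09 against WT mice. For Ints6l, the YAC128 aCSF group stood high and the other 3 groups overlapped. By edgeR, Ints6l did not pass with AON12.1 against scrambled (adjusted p = 0.864) or WT mice (adjusted p = 0.468). No cause of its levels was tested.

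The long noncoding RNA 2900060N12Rik (ENSMUSG00000113621, chromosome 12), annotated as sharing a bidirectional promoter, had 3 to 34 counts per library. Its levels had a lowest, median and highest value of 4.86, 9.57 and 16.7 CPM in AON12.1 mice, 14.2, 22.2 and 26.6 CPM in scrambled mice, 12.2, 21.2 and 26.9 CPM in YAC128 aCSF mice, and 16.5, 20.5 and 28.4 CPM in WT mice. In 7 of 8 AON12.1 mice the level was below that of all 24 other libraries, and the eighth lay inside each other group's range. Set against scrambled mice the log2 fold change with AON12.1 was -1.08 ± 0.21, against YAC128 aCSF mice -1.06 ± 0.21 and against WT mice -1.12 ± 0.21, or a mean 53.5%, 52.1% and 55.1% lower.

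Both ubiquitin ligases of the set carry a RING domain. Rnf157 (ENSMUSG00000052949, chromosome 11), a brain-enriched ligase that supports neuron survival and dendrite growth in cultured rat neurons, had the highest counts, 63 to 208 per library. Levels ran over a lowest, median and highest value of 102, 110 and 139 CPM in AON12.1 mice, 136, 151 and 168 CPM in scrambled mice, 116, 141 and 156 CPM in YAC128 aCSF mice, and 135, 148 and 164 CPM in WT mice. AON12.1 libraries overlapped the range of each other group, and 7 of the 8 lay below every scrambled library. AON12.1 gave the smallest log2 fold change of the 10 against YAC128 aCSF mice, -0.28 ± 0.08, and it was -0.38 ± 0.08 against scrambled and -0.36 ± 0.08 against WT mice.

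Dzip3 (ENSMUSG00000064061, chromosome 16) encodes an RNA-binding ligase whose human form acts on a histone. Its lowest, median and highest levels were 14.6, 33.1 and 44.4 CPM in AON12.1 mice, 32.5, 40.3 and 61.6 CPM in scrambled mice, 41.2, 54.0 and 62.8 CPM in YAC128 aCSF mice, and 36.1, 41.7 and 55.3 CPM in WT mice. Of the 8 AON12.1 libraries, 3 lay below all 24 others and 5 reached into the scrambled range. AON12.1 mice had a log2 fold change of -0.48 ± 0.16 against scrambled, -0.76 ± 0.16 against YAC128 aCSF and -0.47 ± 0.16 against WT mice. Among the mice whose numbers begin with 18 (2 with AON12.1) these values were -1.27, -1.65 and -1.36, and among those that begin with 19 (6 with AON12.1) they were -0.33, -0.55 and -0.26.

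The remaining 3 genes are enzymes or putative enzymes. Alkbh6 (ENSMUSG00000042831, chromosome 7) belongs to the AlkB family of iron-dependent dioxygenases, several of which remove methyl groups from nucleic acids. Alkbh6 had lowest, median and highest levels of 40.0, 51.1 and 62.1 CPM in AON12.1 mice, 61.3, 70.1 and 91.7 CPM in scrambled mice, 59.5, 73.0 and 76.7 CPM in YAC128 aCSF mice, and 58.3, 70.1 and 88.9 CPM in WT mice. The low group was AON12.1 by nearly the same margin against each of the others, with 6 of 8 libraries below all 24. Its log2 fold change with AON12.1 was -0.50 ± 0.10 against scrambled, -0.46 ± 0.10 against YAC128 aCSF and -0.48 ± 0.11 against WT mice.

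Mettl26 (ENSMUSG00000025731, chromosome 17), named as a methyltransferase-like gene, had lowest, median and highest levels of 34.5, 44.2 and 61.2 CPM in AON12.1 mice. They were 47.8, 67.0 and 88.8 CPM in scrambled mice, 62.0, 70.6 and 88.7 CPM in YAC128 aCSF mice, and 51.9, 59.7 and 75.3 CPM in WT mice. AON12.1 libraries lay below every YAC128 aCSF library, as in 7 of 10679 genes (0.0655%), and 2 of the 8 reached into the scrambled and WT ranges. Mettl26 had a log2 fold change with AON12.1 of -0.49 ± 0.12 against scrambled, -0.61 ± 0.12 against YAC128 aCSF and -0.40 ± 0.13 against WT mice.

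Adssl1 (ENSMUSG00000011148, chromosome 12) encodes the muscle-type adenylosuccinate synthetase, which commits IMP to AMP in the purine nucleotide cycle. Its lowest, median and highest levels were 14.7, 25.9 and 28.1 CPM in AON12.1 mice, 21.0, 26.1 and 33.9 CPM in scrambled mice, 31.7, 36.6 and 53.2 CPM in YAC128 aCSF mice, and 17.8, 29.4 and 39.4 CPM in WT mice. As in Ints6l, AON12.1 libraries lay below every YAC128 aCSF library, which held for 7 of 10679 genes (0.0655%), and mixed with scrambled and WT libraries. Adssl1 had a log2 fold change with AON12.1 of -0.68 ± 0.15 against YAC128 aCSF and -0.33 ± 0.16 against WT mice, and the 95% interval against scrambled mice ran from -0.52 to 0.13. Its median level with AON12.1, 25.9 CPM, lay beside the scrambled median of 26.1 CPM. By edgeR, Adssl1 did not pass with AON12.1 against scrambled (adjusted p = 0.860) or WT mice (adjusted p = 0.327). No cause of its levels was tested either.

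**Figure D2:**
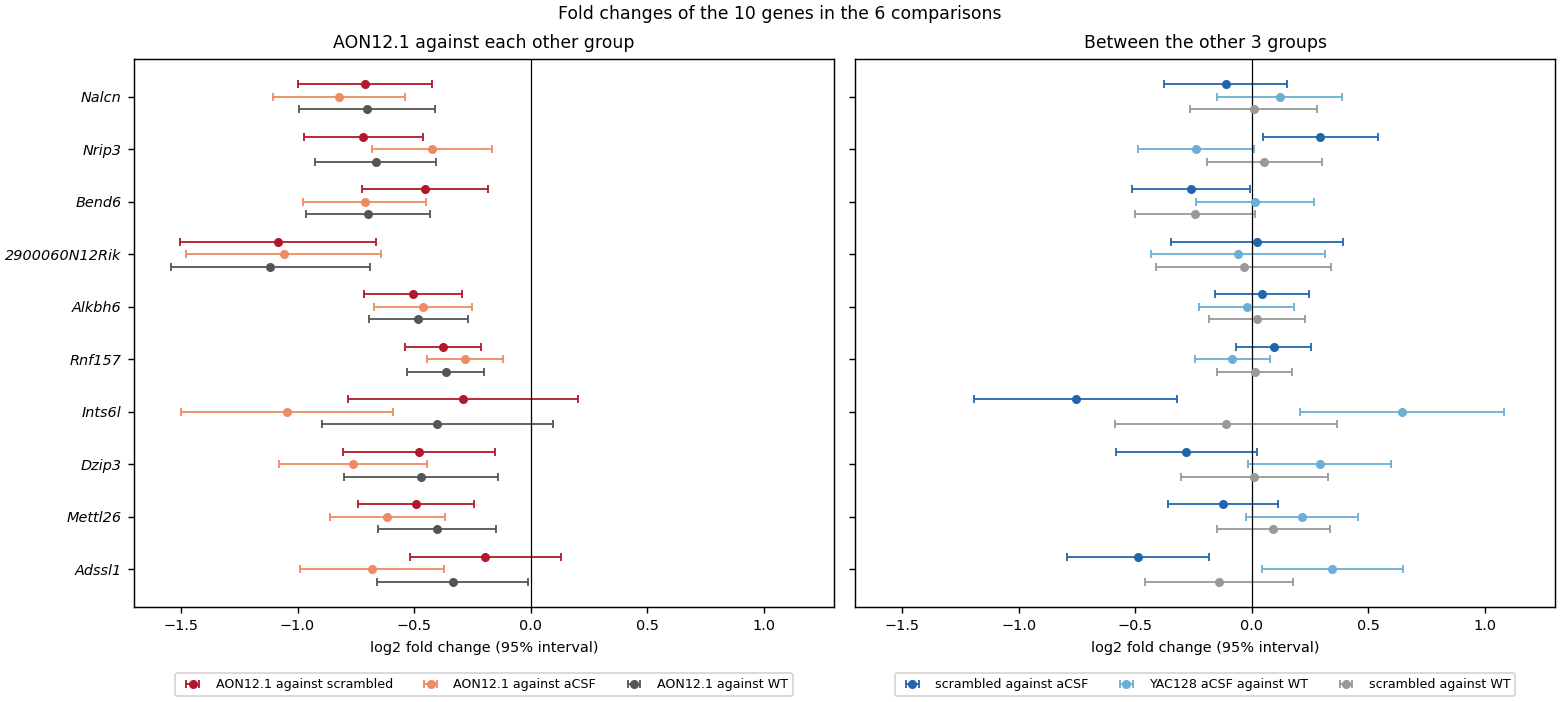
Log2 fold change (x axis) with its 95% interval for each gene (y axis), on the left for AON12.1 against scrambled, YAC128 aCSF and WT mice, on the right for the 3 comparisons among the other groups. Every point on the left is below 0, with intervals that reach 0 for Ints6l against scrambled and WT mice and for Adssl1 against scrambled mice; on the right the widest departures are those of Ints6l.

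Because the 10 genes were chosen with the AON12.1 libraries on one side of each difference, the 3 comparisons among the other groups show whether these genes also moved with the scrambled oligonucleotide or the transgene. They were not part of the choice, but they use libraries that were. Choosing genes that are low against YAC128 aCSF mice favours genes with high values in that group. The tests are therefore not independent of the choice. For scrambled against YAC128 aCSF mice, none of the 10 passed the adjusted threshold of edgeR's quasi-likelihood test, where 9 of 10679 genes did (0.0843%), and DESeq2 and limma voom also called none of the 10. At an unadjusted p under 0.05 there were 4 of the 10, against 9.83% of all genes. Ints6l stood at -0.75 ± 0.22 on the log2 scale (adjusted p = 0.242; 95% interval from -1.19 to -0.32) and Adssl1 at -0.49 ± 0.15 (adjusted p = 0.257; from -0.79 to -0.18). Bend6 stood at -0.26 ± 0.13 (adjusted p = 0.499) and Nrip3 at 0.30 ± 0.12 (adjusted p = 0.422), the other way. The other 6 genes had log2 fold changes from -0.28 (Dzip3) to 0.09 (Rnf157). For Alkbh6 the 95% interval ran from -0.16 to 0.24 and for 2900060N12Rik from -0.35 to 0.39. These intervals reflect the spread between mice, counting error included, and leave room for shifts within them. They are not limits of detection, as the larger values of Ints6l and Adssl1 were not called either.

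The transgene comparison, YAC128 aCSF against WT mice, called none of the 10 by edgeR, where 8 genes passed (0.0749%), nor by DESeq2 or limma voom. The 2 genes with an unadjusted p under 0.05, against 12.5% of all genes, were Ints6l at 0.64 ± 0.22 (adjusted p = 0.211) and Adssl1 at 0.35 ± 0.15 (adjusted p = 0.341). Without WT replicate 1, the WT mouse with the highest Ints6l level, Ints6l passed at 0.82 (adjusted p = 0.0482), in a fit that called 142 genes. With each library's share of counts outside any feature as a covariate, Ints6l stood at 0.38 ± 0.22 (adjusted p = 0.745) and Adssl1 at 0.36 ± 0.17 (adjusted p = 0.707). For Nalcn the log2 fold change was 0.12 ± 0.13, with an interval from -0.15 to 0.39. Scrambled against WT mice called none of the 10, where 18 genes passed (0.169%), also none by DESeq2 or limma voom and none at an unadjusted p under 0.05, against 9.8% of all genes. The log2 fold changes there ran from -0.24 in Bend6 to 0.09 in Mettl26, with adjusted p from 0.537 upward.

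Lower levels in a single group were not peculiar to AON12.1 across the whole table. At an unadjusted p under 0.05 in all 3 of its comparisons, AON12.1 mice were lower in 76 of 10679 genes (0.712%), scrambled mice in 23 (0.215%), YAC128 aCSF mice in 79 (0.74%) and WT mice in 96 (0.899%). Of the 10 genes, 8 met that limit for AON12.1, all but Ints6l and Adssl1, a count that the choice of genes fixed in part. Outside the set, the 5 genes nearest in pattern were Dmrtc1a, Kcnj10, Ywhaz, Atp1b3 and Akr7a5. They had the smallest p for AON12.1 against the mean of the other 3 groups over 32 libraries. The ranking was among genes with the lowest mean in AON12.1 mice, with predicted Gm genes left out. Dmrtc1a averaged 9.16 ± 1.63 CPM in AON12.1 mice, against 17.4 ± 7.28 CPM in scrambled, 19.8 ± 4.05 CPM in YAC128 aCSF and 23.2 ± 7.72 CPM in WT mice. Against the mean of the other 3 groups its log2 fold change was -1.10 ± 0.20, beside -1.09 for 2900060N12Rik, the lowest of the 10. It passed the adjusted threshold against YAC128 aCSF and WT mice but not against scrambled mice. Kcnj10, the inward rectifier potassium channel of glia, averaged 87.2 ± 14.5 CPM in AON12.1 mice, against 117 ± 13.1 CPM in scrambled, 114 ± 15.1 CPM in YAC128 aCSF and 127 ± 14.4 CPM in WT mice. The log2 fold change against scrambled mice was -0.37 ± 0.09 for the 14-3-3 gene Ywhaz, -0.24 ± 0.08 for the sodium pump subunit Atp1b3 and -0.37 ± 0.10 for the aldo-keto reductase Akr7a5, beside -0.19 ± 0.16 for Adssl1 inside the set.

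Genes that work with, or are related to, the 10 were taken from 10 lists with 100 other genes, of which 79 were tested. None of the 79 passed the adjusted threshold in any of the 6 comparisons, where 0.0749% to 0.562% of all genes passed. At such shares a count of none says little about the 79. Against scrambled mice, 44 had lower and 35 higher values with AON12.1, with a median log2 fold change of -0.03 and 5 genes at an unadjusted p under 0.05, against 7.25% of all genes. In the sodium leak channel complex, none of the 3 tested partners of Nalcn passed. Fam155a, the extracellular subunit, stood at -0.27 ± 0.13 (adjusted p = 0.676), Unc79 at 0.04 ± 0.15 (adjusted p = 0.977) and Unc80 at -0.02 ± 0.13 (adjusted p = 0.992). Among 8 other leak and pacemaker channels, 7 had lower values and 1 a higher value (median log2 fold change -0.12), and none passed, with Hcn3 at -0.39 ± 0.19 (adjusted p = 0.676) and the potassium leak channel Kcnk3 at -0.32 ± 0.17 (adjusted p = 0.710).

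Of the 14 tested Integrator genes, 6 had lower and 8 higher values with AON12.1 than with the scrambled oligonucleotide, and none passed. Ints13 stood at 0.29 ± 0.22 (adjusted p = 0.844), and Ints6, named here as the paralog of Ints6l and not by the rule for named genes, at -0.04 ± 0.22 (adjusted p = 0.983). None of the 13 purine synthesis genes passed, with Hprt, the purine salvage enzyme, at 0.20 ± 0.14 (adjusted p = 0.803) and Impdh2 at -0.21 ± 0.15 (adjusted p = 0.829). Adss, the other adenylosuccinate synthetase and also named as a paralog, averaged 49.7 ± 9.07 CPM in AON12.1 mice, 45.5 ± 9.90 CPM in scrambled, 36.5 ± 3.45 CPM in YAC128 aCSF and 45.2 ± 11.1 CPM in WT mice. Its log2 fold change with AON12.1 was 0.44 ± 0.14 against YAC128 aCSF mice (adjusted p = 0.154), a value of the sign opposite to that of Adssl1.

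Among 8 other AlkB genes, 6 had lower and 2 higher values against scrambled mice, and none passed. Alkbh5, the RNA demethylase, came nearest in any comparison, at 0.66 ± 0.18 against WT mice (adjusted p = 0.0636), and it stood at 0.28 ± 0.17 against scrambled mice (adjusted p = 0.762). In the 15 METTL genes, with Mettl17 at -0.34 ± 0.20 (adjusted p = 0.762), the 3 BEN domain genes, with Nacc2 at -0.20 ± 0.09 (adjusted p = 0.639), the 3 relatives of Nrip3, with Nrip1 at -0.07 ± 0.15 (adjusted p = 0.961), and the 3 relatives of the RING ligases, with Cgrrf1 at -0.20 ± 0.16 (adjusted p = 0.858), none passed. Among 9 genes of RNase H enzymes, RNA exonucleases and RNA editing enzymes none passed either. Rnaseh2c, a subunit of RNase H2, had the smallest p of the 79 genes against scrambled mice, -0.45 ± 0.16 (adjusted p = 0.468).

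**Figure D3:**
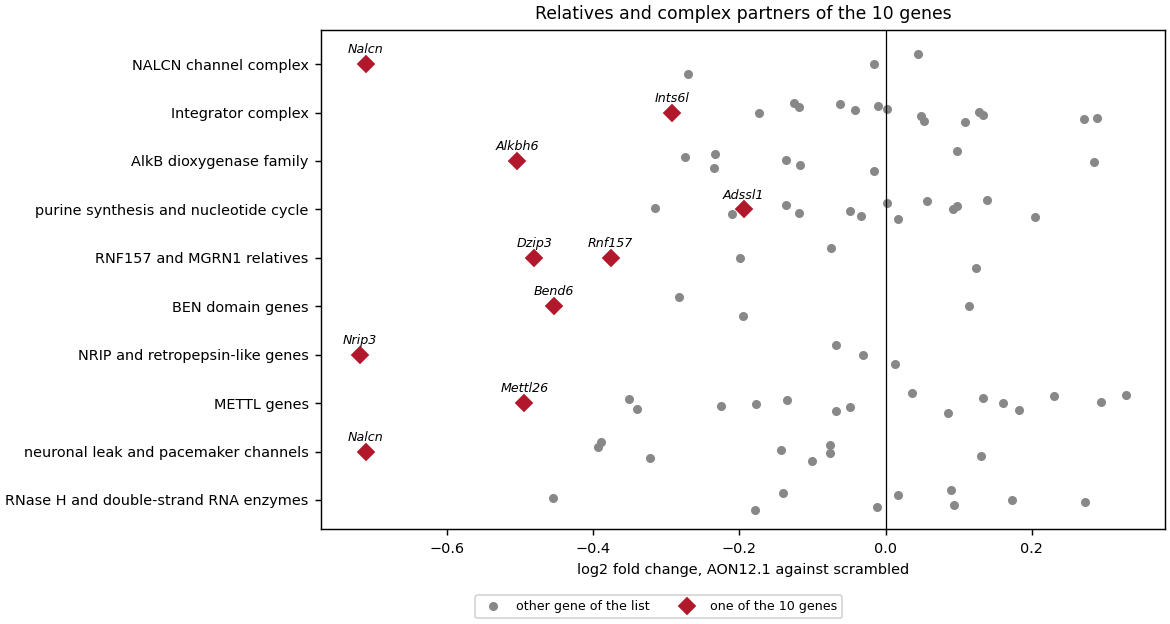
Log2 fold change for AON12.1 against scrambled mice (x axis) of the tested genes in 10 lists (y axis), with the 10 genes as red diamonds and their relatives or partners as grey points. The relatives spread from -0.45 to 0.33 on both sides of 0, and none passed the adjusted threshold.

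The genes next to the 10 on the chromosome were looked at in the GENCODE M21 annotation, where 22 tested genes overlapped or flanked them. None of the 22 passed the adjusted threshold in any of the 6 comparisons, and against scrambled mice 8 had lower and 14 higher values. Of all genes 0.0749% to 0.562% passed, so a count of none says little about the 22. Mboat2, a membrane-bound acyltransferase gene that overlaps 2900060N12Rik on the opposite strand, averaged 62.0 ± 14.6 CPM in AON12.1 mice, 62.0 ± 11.1 CPM in scrambled, 62.9 ± 14.1 CPM in YAC128 aCSF and 62.3 ± 18.8 CPM in WT mice. Its log2 fold change with AON12.1 was 0.02 ± 0.16 against scrambled mice, with a 95% interval from -0.30 to 0.34 that does not reach the -1.08 of 2900060N12Rik. The sources used here do not say whether the counting used strand, so reads of this pair may not be fully separated.

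Dst, which starts 409 bases from Bend6 on the opposite strand and encodes a cytoskeletal linker, stood at 0.07 ± 0.12 against scrambled mice (95% interval from -0.16 to 0.31). Clip3, 350 bases from Alkbh6, stood at -0.11 ± 0.09 (from -0.29 to 0.07), and Foxj1, 954 bases from Rnf157 and a regulator of motile cilia, at 0.12 ± 0.18 (from -0.24 to 0.48). The lowest value among neighbours was that of Cys1, the nearest tested gene to 2900060N12Rik at lower coordinates, with -0.64 ± 0.29 against scrambled mice (adjusted p = 0.639). The 10 genes lie on 8 chromosomes, with a pair each on chromosomes 7 and 12.

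Gene structure varied widely among the 10, read against the 10670 annotated tested genes. Their median gene length was 43763 bases, against 24568 bases over all, with Nalcn at the 97.0th percentile and Mettl26 at the 5.11th. The median of the longest transcript was 3824 bases, against 3486 bases over all. The G and C share of the longest transcript was 36.5% in Dzip3, at the 0.933rd percentile, and 40.3% in 2900060N12Rik, at the 6.76th, while Mettl26 held 56.6%, at the 82.9th. No test was made of these medians.

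Across individual mice, no shared variation of the 10 genes was detected. Counting error at low counts, such as 3 to 34 per library for 2900060N12Rik, draws r toward 0. Pairs of other genes were not computed for comparison. With group means removed from the log2 CPM of 32 libraries, the 45 pairs had a median Pearson r of 0.03, from -0.39 to 0.52, and 27 were positive. None of the 45 pairs passed after Benjamini-Hochberg adjustment of a permutation test within groups, and 3 had an unadjusted p under 0.05. The pair with the highest r was Bend6 with 2900060N12Rik (r = 0.52, permutation p = 0.00725, adjusted p = 0.229; rho = 0.48, permutation p = 0.0105, adjusted p = 0.236), with r = 0.45 without the 2 libraries farthest from the median of Bend6. Nalcn and Alkbh6 followed (r = 0.49, permutation p = 0.0102, adjusted p = 0.229; rho = 0.52, permutation p = 0.00612, adjusted p = 0.236), with r = 0.50 without the 2 farthest libraries.

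**Figure D4:**
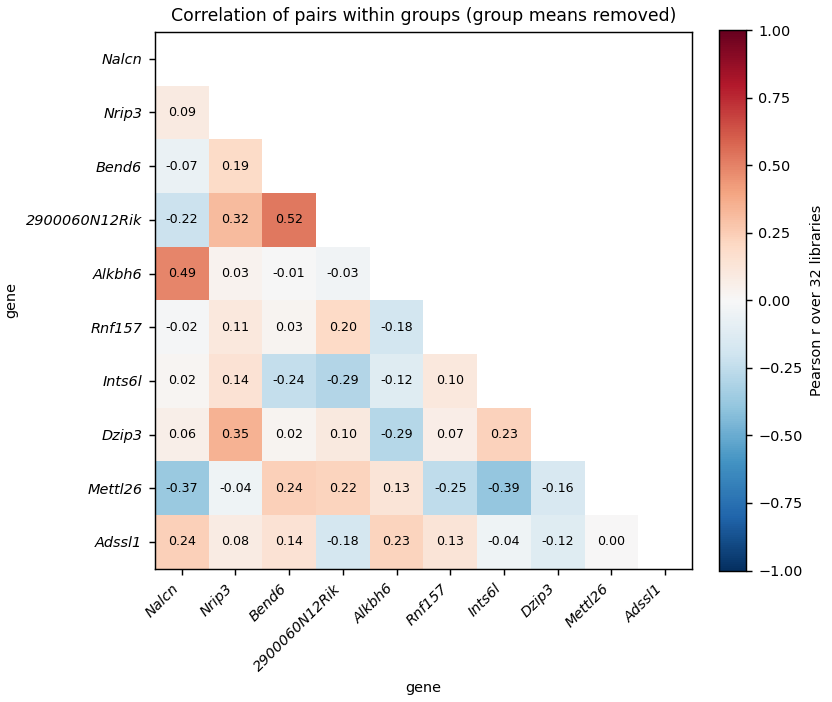
Pearson r of each pair of the 10 genes (both axes) over 32 libraries, after the mean of each group was removed from log2 CPM; blue is negative and red positive. Most cells are pale, and the highest value is that of Bend6 with 2900060N12Rik at 0.52.

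Part of each library's counts fell outside any annotated feature, and this share varied between libraries. It averaged 23.8% ± 6.70 in AON12.1 mice, 22.1% ± 2.41 in scrambled, 25.7% ± 4.92 in YAC128 aCSF and 19.5% ± 4.40 in WT mice (SD, n = 8 each). The difference of AON12.1 mice was 1.71 percentage points from scrambled (two-sided exact permutation p = 0.503, adjusted p = 0.541 over 3 comparisons), -1.80 from YAC128 aCSF (exact p = 0.541, adjusted p = 0.541) and 4.32 from WT mice (exact p = 0.144, adjusted p = 0.431). Within the mice numbered from 18 these differences were -4.09, -10.9 and -3.81 percentage points, and within those numbered from 19 they were 3.65, 3.48 and 7.68, so their sign differed between the number series against all 3 groups. The slope of each gene on this share within groups passed the adjusted threshold in 1555 of 10679 genes (14.6%). Of the 10 genes only Ints6l passed, at 0.0455 ± 0.0159 log2 units per percentage point (adjusted p = 0.0472), with adjusted p from 0.0134 to 0.210 when single libraries were left out, past the threshold in 19 of 32 such fits. YAC128 aCSF mice, where Ints6l was highest, also had the highest mean share. With the share as a covariate, the Ints6l log2 fold change with AON12.1 was -0.40 ± 0.23 against scrambled, -0.99 ± 0.20 against YAC128 aCSF and -0.62 ± 0.24 against WT mice, beside -0.29, -1.05 and -0.40 without it. For scrambled against YAC128 aCSF mice Ints6l stood at -0.59 ± 0.20 with the covariate (adjusted p = 0.373), beside -0.75 without it.

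The number series of the mice, 18 or 19, was spread unevenly, with 2 and 6 mice in the AON12.1 group, 2 and 6 in the scrambled, 4 and 4 in the YAC128 aCSF and 3 and 5 in the WT group. Within series 18 the median log2 fold change of the 10 genes was -0.45 against scrambled, -0.72 against YAC128 aCSF and -0.53 against WT mice. Within series 19 it was -0.51, -0.64 and -0.50. Besides those of Dzip3, the fold changes that moved within series 18 by more than 1 SD of the log2 CPM in AON12.1 libraries were 2900060N12Rik, at -0.43 against scrambled mice, and Nrip3, at -1.03 against scrambled and -1.02 against WT mice. Adssl1 was at -0.46 against scrambled and -0.02 against WT mice within series 18, and at -0.09 and -0.47 within series 19.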

How the data were processed

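Striatal RNA (100 ng per mouse) was made into libraries with a barcoded oligo-dT primer carrying a molecular identifier, per the labels' protocols, so counts come mainly from polyadenylated transcript ends. The deposited values are whole-number counts per gene, not normalized by the authors. The submitters' processing notes name FastQC, cutadapt 2.10, STAR 2.7.5a, HTSeq 0.12.4 and GRCm39. Identifier collapsing and strand use are not given in the sources used here. Neither library sizes nor tests used the 5 summary lines of each file: counts in no feature were 16.3% to 33.7% of a file's sum, and a mean of 8.80% were multiply aligned and 1.59% ambiguous. No 2 files were identical.

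Counts were fitted in R 4.3.3 with edgeR 4.0.16 (TMM, filterByExpr with minimum count 10 and minimum total 15, 1 quasi-likelihood fit of 32 libraries with a term per group), which left 10679 genes with a common biological coefficient of variation of 0.167. Calls are at a Benjamini-Hochberg adjusted p under 0.05 over all tested genes. CPM used TMM-scaled library sizes, and log2 CPM a prior count of 2. DESeq2 1.42.0 and limma 3.58.1 (voom) were alternatives, with other filters, size factors, covariates and left-out libraries. The fits were tested on simulated data. Permutation tests of pairs used 100000 resamples.

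The members and lists were chosen with earlier results of these data known. Named genes were the 10, their neighbours, the 5 nearest in pattern, and per partner list genes that passed or else up to 3 with the smallest p for AON12.1 against scrambled, from which those printed were taken; some genes so named are not reported here. Symbols, biotypes and neighbours came from GENCODE M21 (GRCm38), matched by gene ID, so no gene coordinates are given. Of the features, 52133 were named, with 99.8% of counts. The marker lists were used for summed levels and counts of direction. At these depths a library held from 3 to 208 counts of a member, and intervals cover the spread between mice, counting error included.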

Additional observations from a re-analysis of the deposited data

Results flagged for a closer look

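Of 40 combinations of a gene and a group, 2 had a single library that stood apart, and chance alone gives about 1 in 20. Mettl26 reached 88.7 CPM in YAC128 aCSF replicate 2, where the next highest library of that group had 73.9 CPM. Adssl1 reached 53.2 CPM in YAC128 aCSF replicate 5, where the next highest had 39.4 CPM. Without that library the log2 fold change of Adssl1 with AON12.1 was -0.60 against YAC128 aCSF mice, beside -0.68 with all libraries.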

How the results depend on the processing

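All 30 log2 fold changes of the 10 genes with AON12.1 were negative in each alternative run, and leaving out single libraries kept their median between -0.54 and -0.45 against scrambled, -0.75 and -0.64 against YAC128 aCSF and -0.54 and -0.44 against WT mice. The genes were chosen on these same libraries, so the signs were largely set beforehand and nothing is read from them. No alternative called any of the 10 in scrambled against aCSF or scrambled against WT mice. In YAC128 aCSF against WT mice the number called was 0 to 1 when single libraries were left out. The Ints6l slope on the share of counts in no feature was lost (0 called) with no filter, with DESeq2, with limma voom, with the number series as covariate, within series 18, within series 19 and in libraries with a share up to 25%, and leaving out single libraries gave 0 to 1. The slope itself stayed positive, at 0.0427 with no filter, 0.0460 with DESeq2, 0.0438 with limma voom, 0.0408 with the number series as covariate, 0.111 within series 18, 0.0351 within series 19 and 0.0656 at a share up to 25%, beside 0.0455. Most of the calls of the 10 genes with AON12.1 were lost within series 18, within series 19 and at a share up to 25%, fits that hold fewer samples. The restriction to a share up to 25% (5 AON12.1, 7 scrambled, 3 YAC128 aCSF and 7 WT libraries) was chosen after seeing the data.

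Counts of genes called over the whole table moved more. For AON12.1 against scrambled (15) there were 1 within series 18, 5 within series 19, 8 at a share up to 25% and 7 with only the 2 groups, and leaving out single libraries gave 10 to 17. For AON12.1 against YAC128 aCSF (33) there were 57 with no filter, 90 with DESeq2, 276 within series 18, 2 within series 19 and 6 at a share up to 25%, and 26 to 73 without single libraries. For AON12.1 against WT (60) there were 104 with DESeq2, 3 within series 18, 26 within series 19 and 33 at a share up to 25%, and 49 to 97 without single libraries. Scrambled against YAC128 aCSF (9) gave 14 with no filter, 4 with a minimum count of 20, 23 with DESeq2, 5 with the number series as covariate, 1 within series 18, 1 within series 19, 1 at a share up to 25%, 5 with only the 2 groups, and 3 to 13 without single libraries. Scrambled against WT (18) gave 33 with no filter, 39 with DESeq2, 28 with the share as covariate, 3 within series 18, 4 within series 19, and 10 to 27 without single libraries. YAC128 aCSF against WT (8) gave 21 with no filter, 4 with a minimum count of 20, 54 with DESeq2, 4 with the share as covariate, 2 within series 18, 2 within series 19, 1 at a share up to 25%, and 3 to 142 without single libraries, 142 being without WT replicate 1. Fits within a number series hold fewer samples; otherwise the cause was not tested.

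No paired analysis was possible because the labels give no replicate numbers shared between groups. Depth limits 2900060N12Rik and Ints6l most, with as few as 3 and 6 counts in a library.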
